A study of Mus musculus with 35 samples.

Results

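The cell cycle and DNA replication genes described here are 48 genes picked by symbol, not by measured value, from cyclins, cyclin-dependent kinases (CDKs) and the factors of DNA replication and mitosis. All 48 were found among the 22180 genes of the expression table, as 9 genes of G1, 13 of S phase and 26 of mitosis. They were measured in 35 bulk RNA libraries from mice aged 8 to 16 weeks, 5 libraries in each of 7 groups. For 6 groups, neurospheres from the small-intestinal muscularis externa of wildtype mice on a BL6 background were expanded for 7 days with FGF and EGF, dissociated, and differentiated for 3 days by the labels (5 days in the published culture protocol) on poly-L-ornithine (a synthetic polymer), laminin (a protein of basement membranes) or Matrigel (an extract of basement membrane). Cultures on each coating either stayed naive in serum-free control medium or received the cytokine IL-1β at 10 ng/ml for 24 hours. They were not sorted, so non-glial cells of the muscularis contribute RNA. In the seventh group, RiboTag naive, HA-tagged ribosomes with their mRNA were pulled from the untreated muscularis externa of Sox10iCreERT2Rpl22HA/+ Cre+ mice, in which tamoxifen starts tagging in Sox10-expressing cells. The labels speak of biological replicates without saying whether these were separate mice or cultures, so p-values measure the spread between these libraries.

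Progression through the cell cycle starts with D-type cyclins, which mitogens induce and which activate CDK4 and CDK6. These kinases phosphorylate the retinoblastoma protein RB and release E2F factors, which switch on E-type cyclins and the enzymes of DNA replication. The mitotic genes are expressed later, under B-MYB (Mybl2) and FOXM1, and are silenced by the DREAM complex in resting cells. Enteric glia of the healthy adult gut divide rarely, whereas glia and their progenitors proliferate in neurosphere culture.

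Promoter sequences of the RefSeq set for GRCm38.p6, the same assembly as the authors' mm10, were matched by symbol for 38 of the 48 genes. Aurkb, Ccna2, Ccnd1, Ccnd2, Ccne2, Foxm1, Gmnn, Kif20a, Mcm4 and Tpx2 were not matched. For some of the matched members, the 150 bases before the start site of that set are shown. They run 5′ to 3′ on the strand of the gene, with matches to 3 promoter motifs in capitals. The motifs are the cell cycle homology region CHR (TTTGAA or TTCGAA), the CCAAT box (CCAAT) and the E2F site (TTTCCCGC, TTTGGCGC, TTTCGCGC or TTTGCCGC), each searched on both strands, and overlapping matches run together.
Ccnd3, chr17:47504901-47505050, plus strand: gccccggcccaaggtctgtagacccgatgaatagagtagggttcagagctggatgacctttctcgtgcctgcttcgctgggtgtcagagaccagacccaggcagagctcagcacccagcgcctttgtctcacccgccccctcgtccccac
Cdk6, chr5:3343743-3343892, plus strand: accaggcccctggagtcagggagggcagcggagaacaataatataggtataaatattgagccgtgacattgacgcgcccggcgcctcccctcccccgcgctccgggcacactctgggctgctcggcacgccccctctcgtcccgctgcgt
Mcm6, chr1:128359706-128359855, minus strand: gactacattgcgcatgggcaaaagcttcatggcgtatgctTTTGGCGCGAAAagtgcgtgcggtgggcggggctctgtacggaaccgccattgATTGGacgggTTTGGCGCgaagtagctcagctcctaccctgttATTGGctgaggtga
Cdk1, chr10:69352913-69353062, minus strand: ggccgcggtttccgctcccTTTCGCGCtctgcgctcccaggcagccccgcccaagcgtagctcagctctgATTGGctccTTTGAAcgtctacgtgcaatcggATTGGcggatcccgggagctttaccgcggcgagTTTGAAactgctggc
Cdc20, chr4:118437344-118437493, minus strand: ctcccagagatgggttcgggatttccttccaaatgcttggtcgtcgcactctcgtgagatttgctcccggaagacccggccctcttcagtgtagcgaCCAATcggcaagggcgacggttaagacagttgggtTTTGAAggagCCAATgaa
Top2a, chr11:99024190-99024339, minus strand: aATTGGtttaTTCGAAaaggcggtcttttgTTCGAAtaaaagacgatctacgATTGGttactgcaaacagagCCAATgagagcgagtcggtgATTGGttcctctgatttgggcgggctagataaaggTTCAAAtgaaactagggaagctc
The windows of Ccnd3 and Cdk6, both G1 genes, held no match, and the start site used for Cdk6 lay 2889 bases inside the annotated gene, so its window is not the sequence before the gene. Of the 38 windows, 6 had a start site over 150 bases inside the gene, those of Cdk6, E2f1, Mybl2, Aurka, Mcm7 and Cdc6. That of Mcm6, a subunit of the replicative helicase, held E2F sites and CCAAT boxes, and those of Cdk1, Cdc20 and Top2a each held CHR elements and CCAAT boxes. The Cdk1 window also held an E2F site. Of the windows not shown, that of Tyms held no match. Those of Hmmr, Cdca8 and Ccnb1 held CCAAT boxes without a CHR. Those of Mcm3, Pcna and Rrm1 held CCAAT boxes without an E2F site. Over 250 bases upstream, a CHR was found in 8 of 21 mitotic promoters (38.1%), 2 of 11 S-phase promoters (18.2%) and 0 of 6 G1 promoters, and in 17.1% of all 32851 promoters. A CCAAT box was found in 85.7% of the mitotic, 72.7% of the S-phase, 16.7% of the G1 and 33.9% of all promoters. An E2F site was found in 4.76% of the mitotic, 36.4% of the S-phase, 16.7% of the G1 and 1.86% of all promoters. These matches describe the letters of the windows and are no evidence of binding.

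The values are normalized counts from 3′-end sequencing, so long and short transcripts are counted alike. The G1 genes were the most abundant members, with culture means from 25.1 to 10496 normalized counts, against 13.8 to 352 for the S-phase genes and 8.46 to 286 for the mitotic genes. Ccnd2, the most abundant member, and Ccnd1 and Ccnd3 encode the D-type cyclins, and their sum made up most of the G1 signal in every library. A value above 0 was listed in all 35 libraries for 8 of 9 G1 genes (not Ccne2), for 9 of 13 S-phase genes (not Mcm5, Cdc6, Gmnn and Rrm2) and for only 2 of 26 mitotic genes, Kif20a and Top2a. The spindle checkpoint kinase gene Bub1 was at 0 in 23 libraries, Aurkb in 22 and Kif11 and Cdc6 in 21 each. The median coefficient of variation within a culture group was 28.5% for the G1 genes, 46.9% for the S-phase genes and 72.6% for the mitotic genes. Differences of mitotic genes were therefore measured with larger errors than those of the D-type cyclins.

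Summed over the 26 mitotic genes, the 5 libraries of IL-1β-treated cultures on poly-L-ornithine held 710 to 1323 normalized counts (mean 902 ± 259, SD, n = 5). The corresponding sums were 1875 ± 542 on Matrigel and 1799 ± 541 on laminin after IL-1β, and 2052 ± 804, 1954 ± 895 and 1599 ± 455 in the naive cultures on Matrigel, laminin and poly-L-ornithine. RiboTag libraries had 626 ± 249, and their S-phase sum of 909 ± 140 compared with culture means of 1713 to 2154. The G1 sum was 21091 ± 3741 in RiboTag, 22347 to 24173 as the mean of the naive groups, and 18217, 18316 and 14210 after IL-1β on Matrigel, laminin and poly-L-ornithine. In bulk RNA, fewer cycling cells and less of these transcripts per cell cannot be told apart.

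**Figure D1:**
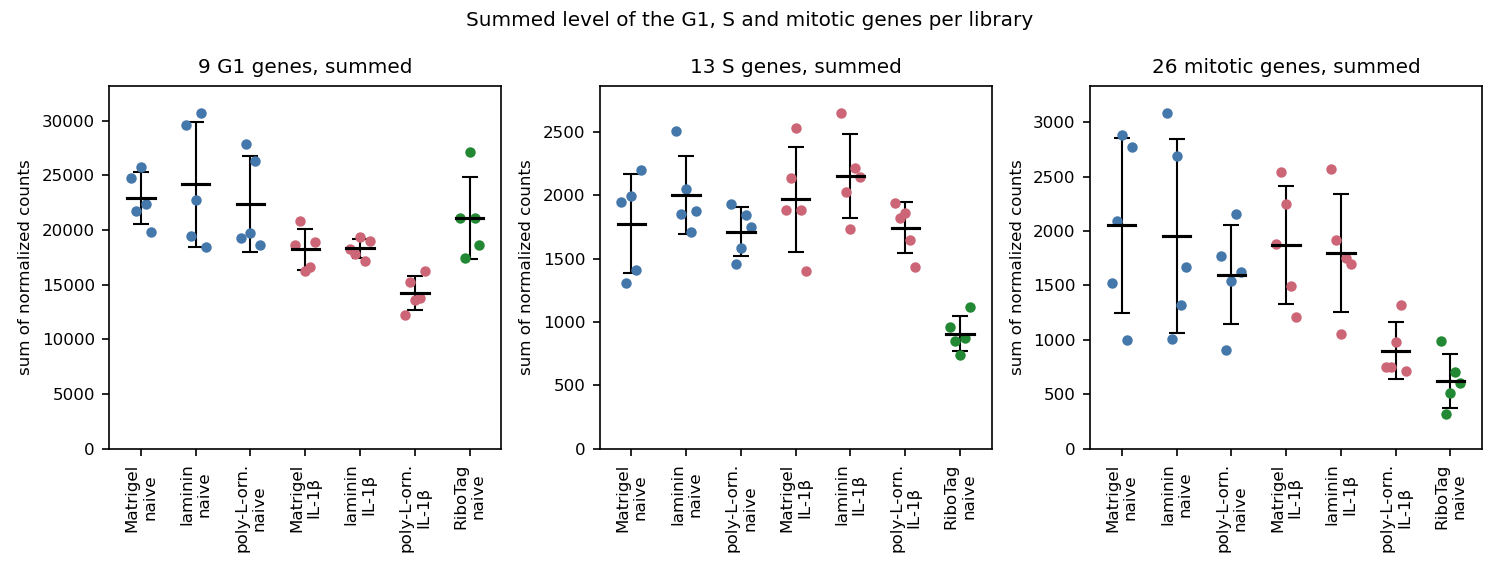
Summed normalized counts of the 9 G1, 13 S-phase and 26 mitotic genes in each library (dots), with the group mean (line) and SD (bars, n = 5), for the 7 groups. The mitotic sums of IL-1β-treated cultures on poly-L-ornithine lay at 710 to 1323 and those of RiboTag at 317 to 989, while the S-phase sums of RiboTag lay below those of the cultures.

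Library totals ran from 7522181 to 9185843 normalized counts with 11945 to 14513 genes above 15, and no 2 libraries were identical. All 8 enteric glia markers were present in the cultures and in RiboTag, with sums of 6461 to 21050 in cultures and 28582 to 39897 in RiboTag. All 7 smooth muscle and 6 fibroblast markers were also above 0 in some culture and in RiboTag. Smooth muscle markers summed to 2221 to 39044 in cultures and 226140 to 484890 in RiboTag, and fibroblast markers to 11796 to 77316 in cultures and 4696 to 7701 in RiboTag.

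After IL-1β the transcripts of all 3 D-type cyclins fell and that of Cdk6, a partner kinase of these cyclins, rose. Over the 3 coatings, 6 of the 48 members passed the test. Ccnd1, Ccnd2, Ccnd3 and the mitotic spindle gene Hmmr fell, and Cdk6 and Tyms rose. The test was limma on log2(normalized count + 2) with one fit over the 30 culture libraries, Benjamini-Hochberg adjustment over 20687 genes and a threshold of 0.05. Log2 fold changes are differences between group means of these log2 values and are given with their standard error (SE). For genes with few counts or libraries at 0 they can be smaller or larger than the ratio of the mean counts. Of all genes tested, 3.42% rose and 4.02% fell, against 2 and 4 of the 48 members. The members' median log2 fold change was -0.48, with 34 of 48 below 0, and that of all genes was -0.04. Each of the 6 calls held when any one of the 30 libraries was left out.

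Ccnd3 ran from 1036 to 2805 (median 1685) normalized counts in the 15 IL-1β-treated libraries and from 2541 to 4318 (median 2954) in the 15 naive ones (log2 fold change -0.87, SE 0.103, adjusted p = 1.05e-08 from limma). Ccnd2 ran from 5869.8 to 10969 (median 8485) after IL-1β and from 9056 to 17091 (median 11652) in naive cultures (log2 fold change -0.54, SE 0.0945, adjusted p = 0.000196). Ccnd1, the D-type cyclin best known as a mitogen target, ran from 1923 to 5119 (median 2979) after IL-1β and from 3115 to 7549.5 (median 5094) in naive cultures (log2 fold change -0.75, SE 0.134, adjusted p = 0.000313). For each of these cyclins the medians were apart and the ranges overlapped at their ends. Cdk6 went the other way, from 1243 to 2926 (median 1857) after IL-1β and 772 to 1663 (median 1124) in naive cultures (log2 fold change 0.81, SE 0.112, adjusted p = 2.94e-07). Cdk4, the other kinase of the D-type cyclins, ran from 950.1 to 1417 (median 1163) after IL-1β and from 739.7 to 1261 (median 977) in naive cultures and did not pass the test (log2 fold change 0.22, SE 0.0966, adjusted p = 0.195). The remaining G1 genes, the E-type cyclins Ccne1 and Ccne2, their kinase Cdk2 and the transcription factor E2f1, had adjusted p-values from limma of 0.8, 0.646, 0.593 and 0.402.

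**Figure D2:**
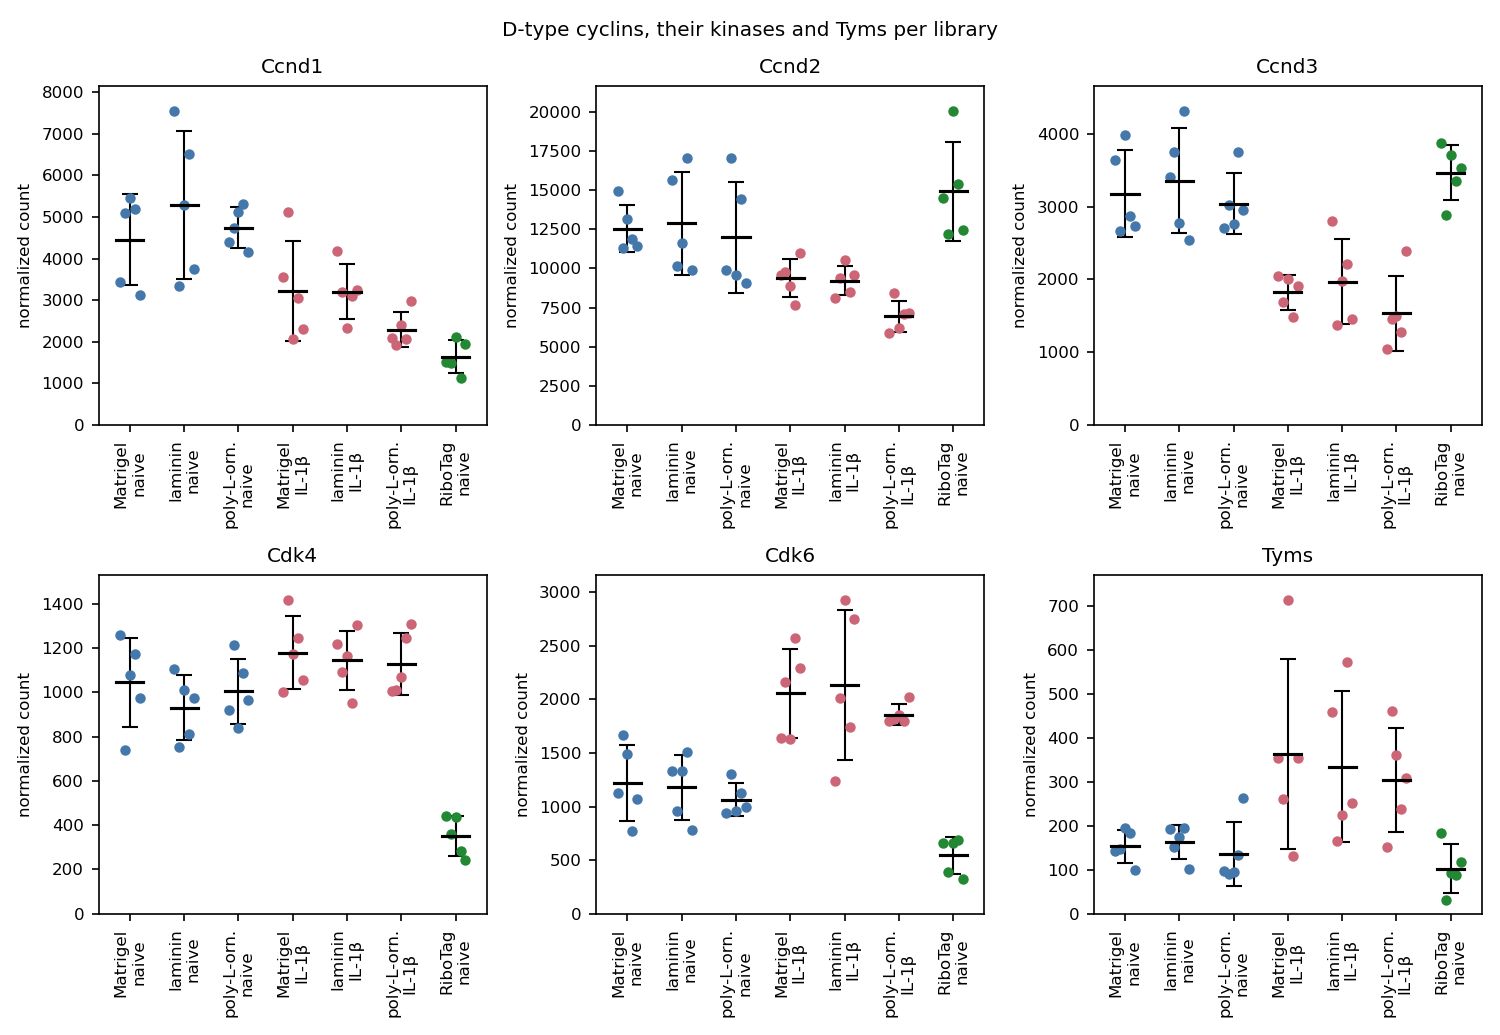
Normalized counts per library (dots) with group mean (line) and SD (bars, n = 5) of Ccnd1, Ccnd2, Ccnd3, Cdk4, Cdk6 and Tyms in naive, IL-1β-treated and RiboTag libraries. The D-type cyclins were lower and Cdk6 and Tyms higher after IL-1β, and Ccnd2 and Ccnd3 of RiboTag lay at the level of naive cultures or above.

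Of the 13 S-phase genes only Tyms, which encodes thymidylate synthase of the dTTP supply, passed the test. It ran from 132 to 713 (median 308) normalized counts after IL-1β and from 91.3 to 263 (median 147) in naive cultures (log2 fold change 1.05, SE 0.216, adjusted p = 0.000369 from limma). The upper part of the treated range exceeded every naive library, and its lower part overlapped them. The MCM helicase genes Mcm4 (-0.78, adjusted p = 0.0673) and Mcm5 (adjusted p = 0.227) and Rrm1 (-0.47, adjusted p = 0.132), the large subunit of ribonucleotide reductase, did not pass by limma. The log2 fold changes of the MCM genes Mcm2, Mcm3, Mcm6 and Mcm7 were 0.26, -0.12, -0.61 and 0.19, and none of them passed. Mcm4 passed when naive Matrigel replicate 4 (adjusted p = 0.0301) or treated laminin replicate 1 (0.0471) or 4 (0.0376) was left out, with a filter on the mean (0.0365) and with a constant variance prior (0.0474). Pcna, the sliding clamp of the replicative polymerases, ran from 189 to 513 (median 311) after IL-1β and from 175 to 392 (median 285) in naive cultures and did not pass (log2 fold change 0.17, SE 0.157, adjusted p = 0.649). Mcm4 ran from 29.5 to 201 (median 73.5) after IL-1β and from 50.8 to 239 (median 155) in naive cultures, and Mcm5 from 0 to 181 (median 41.3) and 19.6 to 162 (median 71.7). The treated and naive ranges of both helicase genes overlapped widely. Rrm1 ran from 108 to 445 (median 194) after IL-1β and from 158 to 442 (median 293) in naive cultures. The S-phase median was -0.12, with 8 of 13 genes below 0.

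Of the 26 mitotic genes, 22 had a log2 fold change below 0 (median -0.51), but only Hmmr, a spindle-associated protein, passed the test. Hmmr was listed at 0 in 11 of 15 treated libraries, with a highest value of 57.0, and ran from 0 to 65.1 (median 18.7) in naive cultures (log2 fold change -2.07, SE 0.607, adjusted p = 0.0207 from limma). The kinetochore motor gene Cenpe (-1.37, adjusted p = 0.222), the proliferation antigen gene Mki67 (-1.13, adjusted p = 0.248), the spindle checkpoint kinase gene Bub1b (1.06, adjusted p = 0.26) and the topoisomerase gene Top2a (-0.42, adjusted p = 0.576) did not pass. Mki67 ran from 0 to 84.3 (median 35.6) after IL-1β and from 0 to 224 (median 37.4) in naive cultures, and these ranges overlapped widely. Top2a ran from 17.3 to 278 (median 85.9) and 22.7 to 240 (median 100.5), Cenpe from 0 to 46.4 (median 14.9) and 0 to 64.4 (median 30.6), and Bub1b from 13.8 to 154 (median 62.2) and 0 to 86.6 (median 33.4), in the same order. The ranges of these 3 genes overlapped too.

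Among genes of the same pathways outside the 48, the CDK inhibitors held most of the calls, with 3 of 8 lower and 0 higher, against 4.02% and 3.42% of all genes. These lists were chosen with earlier results of these data known, so their counts are descriptive. Cdkn1c, which encodes p57, ran from 98.0 to 921 (median 248) normalized counts after IL-1β and from 1090.2 to 2906 (median 1623) in naive cultures, without overlap (log2 fold change -2.74, SE 0.281, adjusted p = 9.59e-08 from limma). Cdkn1b (-0.64, adjusted p = 0.000694), which encodes p27, and Cdkn2b (-0.70, adjusted p = 0.00113), which encodes p15, fell as well. Of 31 other replication genes, only Dut, the dUTPase that supplies dUMP to thymidylate synthase, passed, and it rose (0.59, adjusted p = 0.0116). By limma none of 41 other mitosis genes passed (2 had an unadjusted p under 0.05, as had 17.7% of all genes, median log2 fold change -0.42), nor did any of 16 genes of RB, E2F and DREAM (2) or of 16 genes of the APC/C and SCF ubiquitin ligases (2). The summed markers of 3 cell types had lower medians in treated than in naive cultures. Smooth muscle markers ran from 2221 to 14770 (median 4860) after IL-1β and from 7406 to 39044 (median 13791) in naive cultures, fibroblast markers from 11796 to 77316 (median 27466) and from 17827 to 76209 (median 42981), and glial markers from 6461 to 15881 (median 9349) and from 7848 to 21050 (median 12218). The defining smooth muscle factor Myocd was at or near 0 in naive and treated cultures alike, with a highest value of 5.36. The part of these cells in the fall of the cyclins was not tested.

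Within single coatings, Ccnd3 and Cdk6 passed on each one, and Ccnd1 and Ccnd2 passed on poly-L-ornithine. On Matrigel, Ccnd3 was at 1480.4, 1685, 1903, 2009 and 2046 after IL-1β and at 2671, 2733, 2868, 3644 and 3995 in naive cultures (log2 fold change -0.79, SE 0.179, adjusted p = 0.00643 from limma). Every treated library lay below every naive one. Cdk6 was at 1627, 1638, 2159, 2294 and 2569.9 after IL-1β and at 772, 1068, 1124, 1492 and 1663 in naive cultures (log2 fold change 0.78, SE 0.194, adjusted p = 0.0174), with some overlap. Ccnd2 was at 7654, 8894, 9611, 9796 and 10969 after IL-1β and at 11318, 11413, 11912, 13185 and 14942 in naive cultures, without overlap, and did not pass (log2 fold change -0.42, SE 0.164, adjusted p = 0.276). It was called when only the groups compared were fitted (0.00833) and with a block for the serial rank (0.000366). Ccnd3 and Cdk6 were the only calls on Matrigel, 1 higher and 1 lower against 1.14% and 0.822% of all genes. The Cdk6 call was lost without naive replicate 4 (adjusted p = 0.107) or 5 (0.0507), or without treated replicate 2 (0.0501), 4 (0.0676) or 5 (0.0612). Leaving out treated replicate 4 also brought in Tyms (adjusted p = 0.0401). With a constant variance prior neither Ccnd3 (0.0911) nor Cdk6 (0.139) passed.

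On laminin, Ccnd3 was at 1376, 1459, 1976, 2217 and 2805 after IL-1β and at 2541, 2775, 3406, 3754 and 4318 in naive cultures (log2 fold change -0.80, SE 0.179, adjusted p = 0.0058 from limma), and the groups overlapped. Cdk6 was at 1243, 1739, 2010.4, 2746 and 2926 after IL-1β and at 777, 954, 1331, 1334 and 1509.9 in naive cultures (log2 fold change 0.83, SE 0.194, adjusted p = 0.00804). The treated libraries were the higher ones with some overlap, and the call was lost without naive replicate 5 (adjusted p = 0.0622) or treated replicate 3 (0.0587). These 2 calls, 1 in each direction, stand against 1.15% of all genes higher and 0.735% lower. With a constant variance prior neither passed (0.0871 for Ccnd3 and 0.1 for Cdk6).

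On poly-L-ornithine 3 members fell and 1 rose, against 1.14% and 1.2% of all genes. Ccnd1 was at 1923, 2055, 2082, 2412 and 2979 after IL-1β and at 4146, 4394, 4739, 5117 and 5323 in naive cultures (log2 fold change -1.06, SE 0.232, adjusted p = 0.00894 from limma). Ccnd2 was at 5869.8, 6175, 7053, 7137 and 8446 after IL-1β and at 9056, 9601, 9890.4, 14418 and 17060 in naive cultures (log2 fold change -0.76, SE 0.164, adjusted p = 0.00774). Ccnd3 (-1.04, adjusted p = 0.00015) and Cdk6 (0.81, adjusted p = 0.00879) also passed, and for all 4 genes no treated library reached the range of the naive ones. With a constant variance prior the Cdk6 call was lost (0.0968). Top2a was likewise apart, at 22.0, 37.4, 39.0, 43.5 and 49.4 after IL-1β and 63.3, 69.1, 86.8, 93.8 and 100.5 in naive cultures, and did not pass the test (log2 fold change -1.10, SE 0.573, adjusted p = 0.483). Plk1, a kinase of mitotic entry and spindle assembly, did not pass (-3.13, adjusted p = 0.0721), nor did Tyms (1.18, adjusted p = 0.0869). Tyms was called when only the groups compared were fitted (0.0301) and without naive replicate 5 (0.0294) or treated replicate 1 (0.0376), and the spindle midzone gene Prc1 when only the groups compared were fitted (0.0393). The median of the 48 members was -1.02 on poly-L-ornithine (-0.96 without Cdc6, Aurkb and Hmmr, which were listed at 0 in all 5 treated libraries), 0.18 on Matrigel and 0.03 on laminin. The median of all genes was 0.00 on each coating. Unadjusted p-values under 0.05 numbered 15, 7 and 7 of 48 on poly-L-ornithine, Matrigel and laminin, against 11.3%, 10.8% and 10.6% of all genes, and 24 of 26 mitotic genes were below 0 on poly-L-ornithine (median -1.32). Of the other lists, Cdc45 of the replicative helicase (-3.81, adjusted p = 0.0152), the kinetochore gene Spc24 (-3.98, adjusted p = 0.0197) and Cdkn1c (-3.01, adjusted p = 0.000397) fell on this coating.

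Among naive cultures no member was called different between the coatings. Matrigel and laminin were compared together with poly-L-ornithine, and limma called 0 of 48 members and 0% of all genes. Only the B-type cyclin gene Ccnb1 had an unadjusted p under 0.05, with 0, 14.0, 21.3, 29.4 and 66.0 normalized counts on poly-L-ornithine, 53.3, 54.0, 71.6, 108 and 119 on Matrigel and 18.7, 27.4, 44.3, 58.4 and 99.5 on laminin (log2 fold change 1.77, SE 0.863, adjusted p = 0.943). The 3 groups overlapped. The other members ranked first in each class were Ccne1 (-0.74, adjusted p = 0.965), Ccne2 (1.06, adjusted p = 0.965), the helicase loader gene Cdc6 (-1.23, adjusted p = 0.965), Tyms (0.30, adjusted p = 0.965) and Ccnb2 (1.53, adjusted p = 0.943). Ccnd1 (-0.01, adjusted p = 1), Pcna (0.04, adjusted p = 1), Top2a (0.48, adjusted p = 0.965) and Mki67 (1.35, adjusted p = 0.943) did not pass either. Mki67 was at 0, 30.6, 31.3, 37.4 and 84.8 on poly-L-ornithine, 33.8, 45.7, 55.1, 75.5 and 224 on Matrigel and 18.7, 20.2, 29.8, 155 and 160.2 on laminin. A Matrigel library was the highest of all, and the 3 groups overlapped. The median over the 48 members was 0.07, with 29 above 0. For Ccnd2, the most precisely measured D-type cyclin, the 95% interval of the difference ran from -0.18 to 0.40 on the log2 scale, and for Mki67 from -0.26 to 2.96.

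After IL-1β, 43 of the 48 members had lower fitted levels on poly-L-ornithine than on the other coatings. Matrigel and laminin against poly-L-ornithine gave a median log2 fold change of 1.10 (1.07 without the 3 genes at 0 on poly-L-ornithine) and 1.43 for the mitotic genes, against 0.00 for all genes. None of them passed the test by limma, and 15 had an unadjusted p under 0.05, as had 7.56% of all genes. Of all genes 0.222% were called higher and 0.0822% lower. The mitotic kinase gene Cdk1 was at 22.8, 29.8, 43.6, 62.4 and 114 on poly-L-ornithine, 41.1, 124, 176, 187 and 229.9 on Matrigel and 86.5, 108, 161, 193 and 289.6 on laminin (log2 fold change 1.57, SE 0.412, adjusted p = 0.0762 from limma). Birc5, which encodes survivin of the chromosomal passenger complex, was at 0, 5.43, 15.8, 71.1 and 106 on poly-L-ornithine, 84.0, 96.8, 113, 150.2 and 241 on Matrigel and 19.0, 50.9, 158, 184 and 187 on laminin (log2 fold change 2.56, SE 0.684, adjusted p = 0.0915). For both genes the poly-L-ornithine libraries were mostly the lowest and overlapped the others at their upper end. Plk1 was at 0, 0, 0, 18.5 and 45.3 on poly-L-ornithine, 28.8, 43.9, 80.0, 112 and 115 on Matrigel and 15.3, 26.1, 32.7, 49.6 and 80.9 on laminin (log2 fold change 3.08, SE 0.834, adjusted p = 0.0915).

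Further log2 fold changes with unadjusted p-values under 0.05 were those of Mki67 (2.65, adjusted p = 0.187 from limma), the spindle gene Nusap1 (3.20, adjusted p = 0.105), Ccnb2 (2.59, adjusted p = 0.226), Top2a (1.49, adjusted p = 0.275), the helicase gene Mcm3 (1.22, adjusted p = 0.225), Ccnd2 (0.43, adjusted p = 0.315), Ccnd1 (0.46, adjusted p = 0.582), Ccnd3 (0.33, adjusted p = 0.609), Prc1 (2.25, adjusted p = 0.482), Kif11 (1.87, adjusted p = 0.64) and Foxm1 (1.53, adjusted p = 0.617). Mcm3 was at 38.8, 45.6, 49.0, 60.3 and 132 on poly-L-ornithine, 81.2, 82.0, 91.6, 109 and 295 on Matrigel and 141, 156, 165, 193 and 205 on laminin. Ccnd2 was at 5869.8, 6175, 7053, 7137 and 8446, at 7654, 8894, 9611, 9796 and 10969 and at 8140.1, 8485, 9372, 9552 and 10518, in the same order. For both genes all but 1 of the poly-L-ornithine libraries lay below every library of the other coatings. Cdc6 was listed at 0 in all 5 libraries on poly-L-ornithine and at 0, 0, 0, 3.73 and 74.2 on Matrigel and 8.44, 19.0, 20.0, 23.4 and 37.3 on laminin. Leaving out 1 library gave calls in 6 of 15 cases. These were Nusap1 (adjusted p = 0.0271) without Matrigel replicate 4, Cdk1 without Matrigel replicate 5 (0.0226) or poly-L-ornithine replicate 1 (0.0338), and Birc5 without laminin replicate 4 (0.0492) or poly-L-ornithine replicate 4 (0.0157) or 5 (0.04996). Plk1 (0.0266) was also called without poly-L-ornithine replicate 4. Smooth muscle markers summed to 2221 to 4430 on poly-L-ornithine, 4048 to 14770 on Matrigel and 3589 to 11843 on laminin, and their part in these values was not tested. Of the 31 other replication genes Cdc45 was called higher on Matrigel and laminin (3.48, adjusted p = 0.0427), and 13 of 41 other mitosis genes had an unadjusted p under 0.05 with 0 called.

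**Figure D3:**
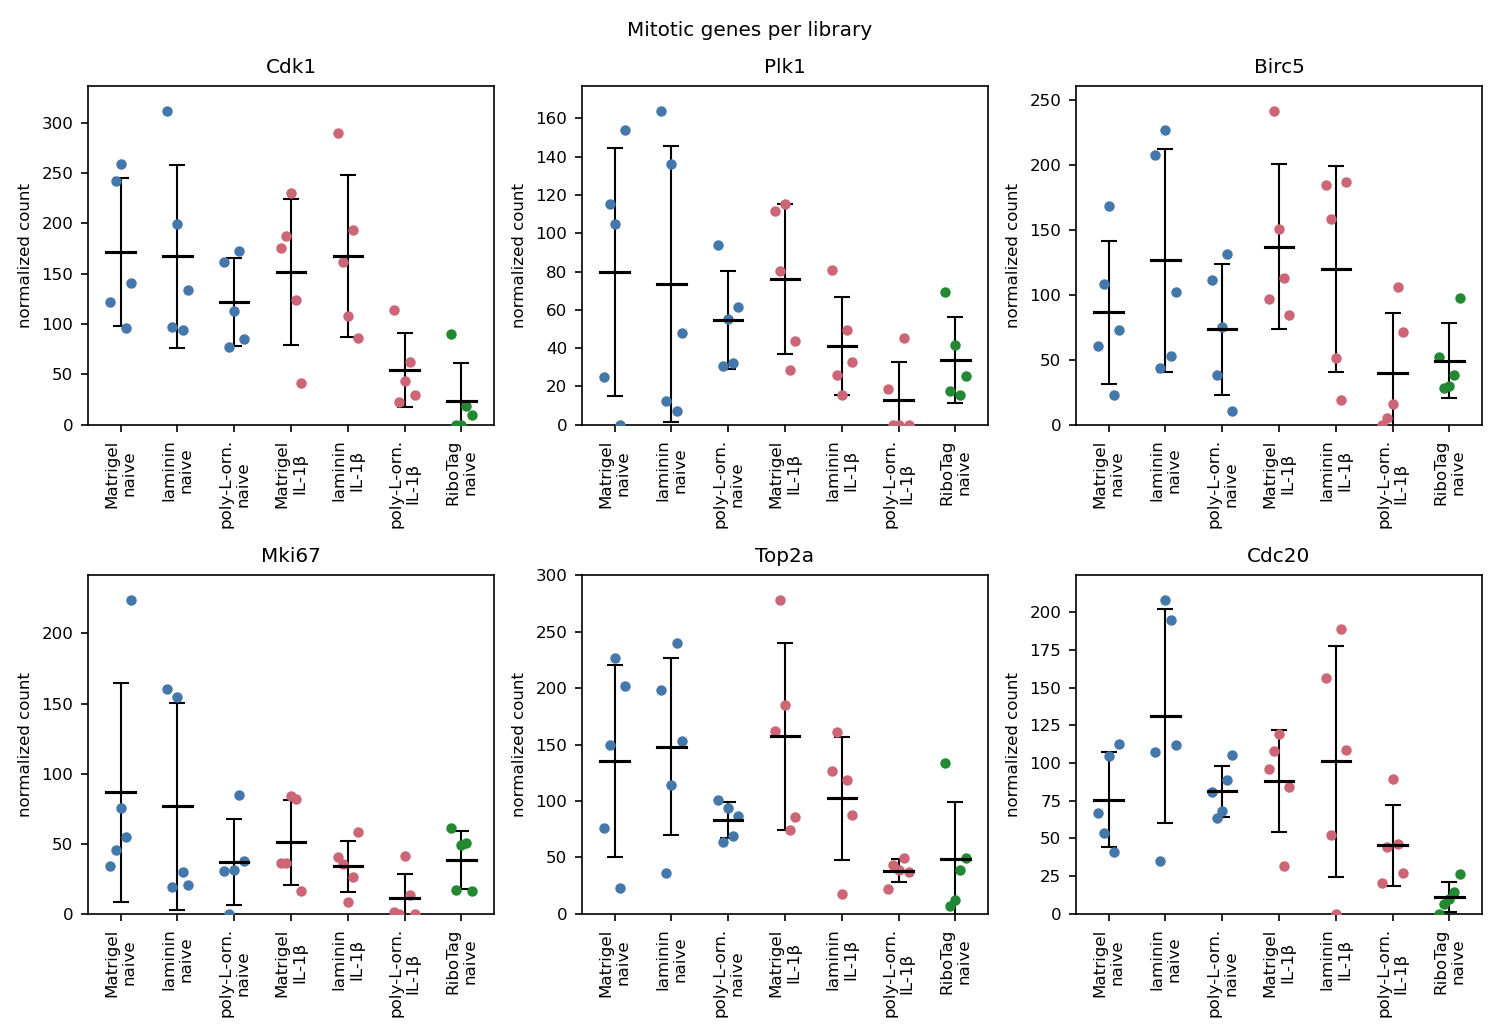
Normalized counts per library (dots) with group mean (line) and SD (bars, n = 5) of the mitotic genes Cdk1, Plk1, Birc5, Mki67, Top2a and Cdc20. After IL-1β on poly-L-ornithine Top2a lay at 22.0 to 49.4 and Plk1 was listed at 0 in 3 of 5 libraries, and in RiboTag Cdc20 lay at 0 to 26.4.

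Whether the response to IL-1β itself differed between the coatings was tested as an interaction, and limma called 0 of 48 members and 0% of all genes. Unadjusted p-values under 0.05 were found for 4 members, Plk1 (log2 difference of the responses 3.40), Nusap1 (3.41), Mcm3 (1.18) and Cdc6, each with an adjusted p of 0.961, and for 4.19% of all genes. The members' median difference was 0.83, with 38 of 48 above 0. The responses of Ccnd1 and Ccnd2 are thus not shown to differ between coatings.

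Part of the spread within groups followed the order of the serial numbers in the sample descriptions. Libraries were ranked 1 to 5 by that number within each culture group, and the labels do not say what the number marks. Deviations from the group means had a mean correlation of 0.0463 between libraries of the same rank over all genes (2 of 75 pairs over 0.1), and of 0.105 over genes with a mean of at least 50 (40 of 75 pairs). Ccnd2 was highest in the library of rank 2 in 6 of 6 culture groups, at 1.14 to 1.42 times its group mean. Birc5 was highest at rank 1 in 5 of 6 groups, and the summed mitotic genes were highest at rank 1 in 5 of 6 and below their group mean at rank 2 in all 6. Mki67 was lowest at rank 2 in 5 of 6 groups, in IL-1β-treated cultures on poly-L-ornithine tied at 0 with rank 4. These members were singled out after their values were seen. With the rank as a block in the fit, 4 members were called lower on poly-L-ornithine than on Matrigel and laminin after IL-1β, where 0.715% of all genes were. These were Ccnd2 (adjusted p = 0.000129 from limma), Birc5 (0.0145), Cdk1 (0.0196) and Plk1 (0.0251). With this block the response to IL-1β also took in Ccnd2 on Matrigel (0.000366) and laminin (0.000107), and Tyms (0.0283), Plk1 (0.0279) and the spindle midzone gene Prc1 (0.0256) on poly-L-ornithine. Of all genes, this block called 1.77% lower on Matrigel, 1.47% lower on laminin, and 1.98% lower and 1.72% higher on poly-L-ornithine.

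**Figure D4:**
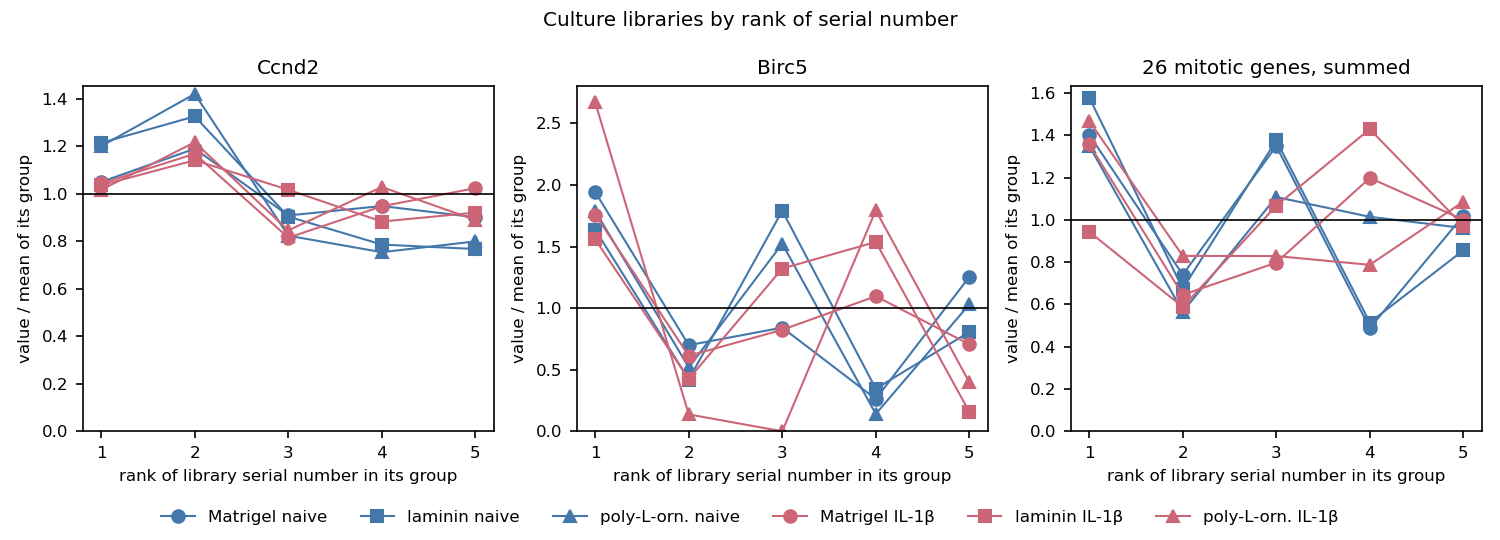
Ccnd2, Birc5 and the sum of the 26 mitotic genes in each culture library, as a multiple of the mean of its group, by the rank of the library's serial number (1 to 5), with a line for each of the 6 culture groups. Ccnd2 peaked at rank 2 in 6 of 6 groups and the mitotic sum at rank 1 in 5 of 6.

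In RiboTag RNA, 24 of the 48 members were lower than in naive cultures and 0 higher, while 14.1% of all genes were lower and 31.3% higher. The fall included 5 of 9 G1, 8 of 13 S-phase and 11 of 26 mitotic genes. RiboTag was fitted with the 3 naive culture groups by limma over 20320 genes. The median log2 fold change was -1.29 over the members (-1.17 without Cdc6 and Bub1, listed at 0 in all 5 RiboTag libraries) and 0.32 over all genes. Ribosome-bound against total RNA, tissue against culture, the mouse line and the RNA kit all differ between these groups and cannot be told apart. Smooth muscle markers (226140 to 484890 in RiboTag, 7406 to 39044 in naive cultures), fibroblast markers (4696 to 7701 and 17827 to 76209) and glial markers (28582 to 39897 and 7848 to 21050) also differed. So did markers of enteric neurons (9809 to 14498 and 4283 to 9451.5) and of interstitial cells of Cajal (360 to 504 and 0 to 92.1). Macrophage, endothelial and mesothelial marker sums of RiboTag and naive cultures overlapped. The part of these cell types was not tested. With the authors' scaling replaced by quantile normalization the median of all genes moved to -0.16 and its calls to 21% higher and 21.5% lower, and the members called numbered 37 (35 lower, 2 higher).

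Ccnd1 was at 1115, 1497, 1502, 1955 and 2099.9 normalized counts in RiboTag and ran from 3115 to 7549.5 (median 5094) in the 15 naive cultures (log2 fold change -1.56, SE 0.169, adjusted p = 4.38e-08 from limma). Cdk4 was at 242, 282, 359, 436 and 441 and ran from 739.7 to 1261 (median 977) (log2 fold change -1.51, SE 0.159, adjusted p = 7.07e-10). Cdk6 was at 328, 390.4, 656, 661 and 691 and ran from 772 to 1663 (median 1124) (log2 fold change -1.11, SE 0.181, adjusted p = 4.03e-06). For these 3 genes every RiboTag library lay below every culture. E2f1, the RB-regulated activator of replication genes, was at 20.1, 26.1, 53.5, 58.5 and 71.8 and ran from 57.3 to 415 (median 262) (log2 fold change -2.52, SE 0.323, adjusted p = 4.91e-08), overlapping only the lowest culture. Cdk2 was lower too (-1.36, adjusted p = 0.00316). The other D-type cyclins did not pass. Ccnd2 was at 12180, 12476, 14527, 15415 and 20068 in RiboTag and ran from 9056 to 17091 (median 11652) in naive cultures (log2 fold change 0.27, SE 0.157, adjusted p = 0.185). Ccnd3 was at 2886, 3349, 3533, 3713 and 3875 and ran from 2541 to 4318 (median 2954) (log2 fold change 0.13, SE 0.117, adjusted p = 0.384). The RiboTag and culture ranges overlapped for both. With quantile normalization both were called higher (adjusted p = 0.0106 and 0.00139) and with equal library totals Ccnd2 was (0.0298). Ccne1 (-0.61, adjusted p = 0.428) and Ccne2 (0.44, adjusted p = 0.725) did not pass.

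Among S-phase genes, Rrm1 was at 86.7, 104, 113, 118 and 182 in RiboTag and ran from 158 to 442 (median 293) in naive cultures (log2 fold change -1.22, SE 0.25, adjusted p = 0.000117 from limma). Mcm3 was at 5.47, 5.94, 43.7, 56.8 and 60.9 and ran from 44.3 to 243 (median 129.8) (log2 fold change -2.21, SE 0.465, adjusted p = 0.000164). Pcna was at 100.1, 124, 139, 218 and 233 and ran from 175 to 392 (median 285) (log2 fold change -0.89, SE 0.23, adjusted p = 0.00168). RiboTag libraries were mostly below the cultures, with overlap at the lower end of the culture range. The helicase loader gene Cdt1 (-1.79, adjusted p = 0.0058) and the helicase genes Mcm6 (-1.67, adjusted p = 0.00584), Mcm7 (-0.70, adjusted p = 0.0194) and Mcm2 (-0.94, adjusted p = 0.0409) were also lower, as was Rrm2 (-2.28, adjusted p = 0.0278), the small subunit of ribonucleotide reductase. Mcm4 (-0.67, adjusted p = 0.0848), Mcm5 (-0.71, adjusted p = 0.223), Tyms (-0.67, adjusted p = 0.102), Cdc6 (adjusted p = 0.0675) and the Cdt1 inhibitor gene Gmnn (0.23, adjusted p = 0.836) did not pass. The call of Mcm7 was lost without RiboTag replicate 1 (0.146), that of Rrm2 without RiboTag replicate 3, 4 or 5 (up to 0.0973) and that of Mcm2 without any of 10 of the 20 libraries (up to 0.126) or with equal library totals (0.0654).

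Cdk1 and Cdc20 were among the 11 mitotic genes that were lower in RiboTag. Cdk1 was at 0, 0, 10.0, 18.9 and 90.2 in RiboTag and ran from 76.8 to 312 (median 134) in naive cultures (log2 fold change -3.86, SE 0.572, adjusted p = 8.11e-07 from limma). Cdc20, an activator of the anaphase-promoting complex, was at 0, 6.25, 9.51, 14.4 and 26.4 and ran from 34.8 to 208 (median 89.0) (log2 fold change -3.17, SE 0.532, adjusted p = 6.63e-06). Every RiboTag library lay below every culture for Cdc20, and a single RiboTag library reached the culture range for Cdk1. Cdca8, which encodes borealin of the chromosomal passenger complex, was at 0, 0, 3.12, 7.43 and 29.2 and ran from 28.1 to 211 (median 74.1) (log2 fold change -3.66, SE 0.616, adjusted p = 6.74e-06). Ccnb1 was at 0, 0, 0, 12.6 and 13.4 and ran from 0 to 119 (median 53.3) (log2 fold change -3.13, SE 0.724, adjusted p = 0.000513). Both were near 0 in most RiboTag libraries, and both ranges overlapped. Ccnb2 (-3.09, adjusted p = 0.00121), the cytokinesis motor gene Kif20a (-2.32, adjusted p = 0.0024), Top2a (-1.68, adjusted p = 0.00872), the spindle assembly gene Tpx2 (-1.83, adjusted p = 0.0215), Hmmr (-2.20, adjusted p = 0.0223), Cenpe (-2.19, adjusted p = 0.0239) and the A-type cyclin gene Ccna2 (-1.81, adjusted p = 0.0403) were lower as well.

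The other 15 mitotic genes did not pass the test. Mki67 was at 16.4, 16.7, 48.7, 50.5 and 60.9 in RiboTag and ran from 0 to 224 (median 37.4) in naive cultures (log2 fold change -0.31, SE 0.678, adjusted p = 0.727 from limma), so the RiboTag values lay within the culture range. Bub1b (0.58, adjusted p = 0.578), the cytokinesis motor gene Kif23 (0.11, adjusted p = 0.932), Nusap1 (-0.35, adjusted p = 0.747), Plk1 (-0.53, adjusted p = 0.599), Birc5 (-0.72, adjusted p = 0.281), Prc1 (-0.97, adjusted p = 0.326), the kinetochore gene Cenpf (-0.48, adjusted p = 0.62), the spindle motor gene Kif11 (-0.38, adjusted p = 0.68) and the transcription factor gene Foxm1 (-0.79, adjusted p = 0.382) did not pass. The same held for the mitotic kinase genes Aurka (-1.54, adjusted p = 0.0987) and Aurkb (-1.08, adjusted p = 0.304), for Mybl2 (-2.03, adjusted p = 0.0505), for the ubiquitin conjugase gene Ube2c (-2.63, adjusted p = 0.0602) and for Bub1 (adjusted p = 0.0813). The call of Tpx2 was lost without RiboTag replicate 4 (0.0646), of Top2a without replicate 2 (0.0632), of Cenpe without 1, 2 or 4 (up to 0.0868), of Hmmr without 1, 2, 3 or 4 (up to 0.0617) and of Ccna2 without any of 11 of the 20 libraries (up to 0.254) or with a constant variance prior (0.0766), equal library totals (0.051) or a pseudocount of 1 (0.0569). The other 16 of the 24 calls held in all 20 leave-outs.

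**Figure D5:**
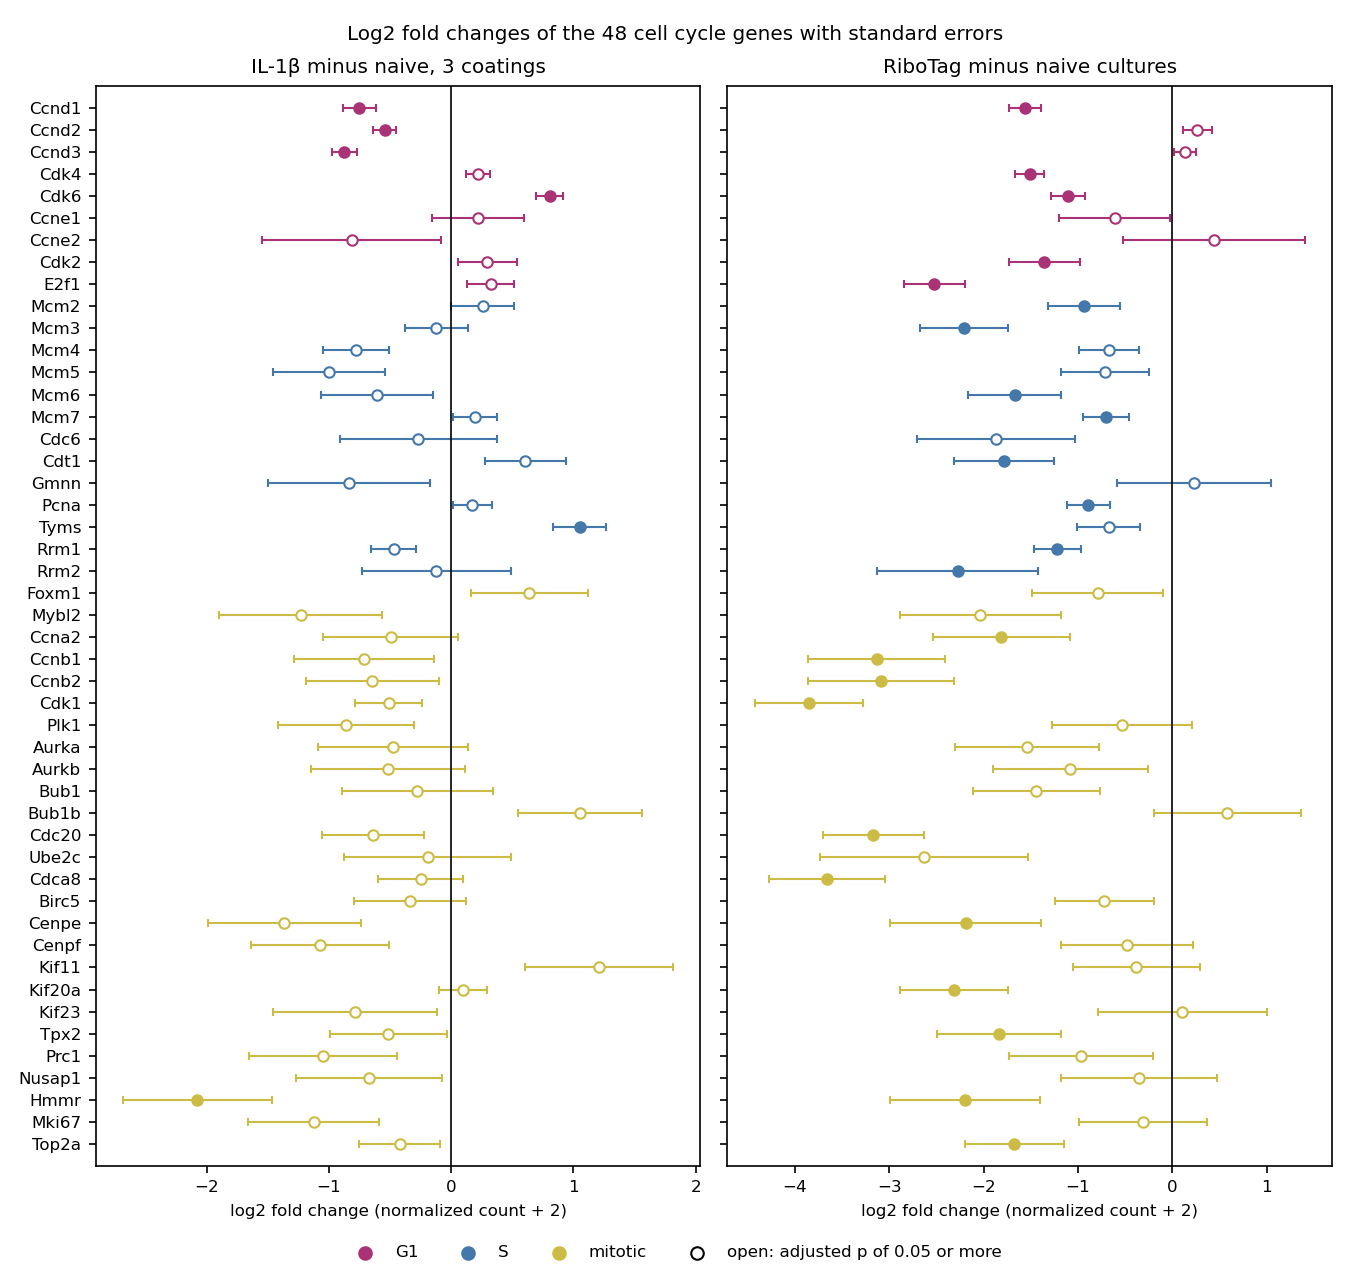
Log2 fold changes on the log2(normalized count + 2) scale of the 48 genes, with standard errors as bars, by class and comparison, where filled points passed the test (adjusted p under 0.05 by limma) and open points did not. The D-type cyclins lay below 0 and Cdk6 and Tyms above 0 for IL-1β, and 24 members passed below 0 in RiboTag against naive cultures.

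In the other lists, 4 of 8 CDK inhibitor genes were lower in RiboTag than in naive cultures and 0 higher. The counts of these lists, which were chosen with earlier results of these data known, stand against 14.1% of all genes lower and 31.3% higher. Cdkn2a, whose locus encodes p16 and ARF, ran from 40.6 to 110.3 (median 48.7) in RiboTag and from 2294 to 6858 (median 3891) in naive cultures (log2 fold change -6.00, SE 0.209, adjusted p = 2.62e-18 from limma). Cdkn1a (p21) ran from 399 to 867 (median 584) in RiboTag and from 3879 to 8211 (median 5239) in naive cultures (log2 fold change -3.18, SE 0.134, adjusted p = 2.34e-20). Cdkn2b (-6.94, adjusted p = 8.58e-18) and Cdkn1c (-3.26, adjusted p = 2.19e-14) were lower too. Of 30 other replication genes 3 were lower, among them Dut (-2.35, adjusted p = 2.08e-09) and Uhrf1 (-4.60, adjusted p = 1.1e-07), and Pola2 (2.90, adjusted p = 2.9e-06) was higher. Of 41 other mitosis genes 7 were lower, led by Cks1b (-3.48, adjusted p = 1.96e-10), a CDK-binding subunit, and 2 were higher, Cdc25b (1.78, adjusted p = 0.000192) and Pttg1 (0.60, adjusted p = 0.00888). Of 16 genes of RB, E2F and DREAM, Tfdp2 (2.61, adjusted p = 4.39e-08) and E2f2 (2.08, adjusted p = 0.0421) were higher and Tfdp1 (-1.39, adjusted p = 0.0247) lower. Of 16 APC/C and SCF genes 2 were higher and 3 lower, among them Fbxw7 (2.24, adjusted p = 1.3e-09), whose ligase degrades cyclin E, on the higher side.

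Against IL-1β-treated cultures, which shares the 5 RiboTag libraries with the comparison above, 21 members were lower and 2 higher, where 14.8% of all genes were lower and 32.3% higher. With quantile normalization 30 members were lower and 2 higher, against 21.6% and 21% of all genes. The 2 higher ones with the authors' scaling were D-type cyclins. Ccnd2 ran from 12180 to 20068 (median 14527) in RiboTag and from 5869.8 to 10969 (median 8485) in treated cultures (log2 fold change 0.81, SE 0.0981, adjusted p = 1.81e-08 from limma), and Ccnd3 from 2886 to 3875 (median 3533) in RiboTag and from 1036 to 2805 (median 1685) in treated cultures (log2 fold change 1.01, SE 0.15, adjusted p = 9.41e-07). No treated culture reached the RiboTag range for either gene. Ccnd1 was lower (-0.81, adjusted p = 0.000131), as were Cdk4 (-1.73, adjusted p = 8.26e-12), Cdk6 (-1.91, adjusted p = 2.18e-11) and E2f1 (-2.84, adjusted p = 8.51e-10), the last 3 without overlap. The S-phase genes lower in RiboTag numbered 9 and included Tyms (-1.73, adjusted p = 9.6e-05) and Cdt1 (-2.39, adjusted p = 5.55e-05), and the mitotic ones numbered 7 and included Cdk1 (-3.35, adjusted p = 5.12e-05), Cdca8 (-3.41, adjusted p = 2.93e-05) and Ube2c (-2.44, adjusted p = 0.000773). The call of Mcm7 was lost without RiboTag replicate 1 (0.0623), of Rrm1 without 1, 2 or 3 (up to 0.0875), of Ccnb1 without 2, 3 or 5 (up to 0.0951), of Cdc6 without any of 12 libraries (up to 0.0892) and of Rrm2 without any of 14 (up to 0.142). Equal library totals also ended the calls of Rrm1 (0.0736) and Rrm2 (0.0523).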

How the data were processed

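RNA was measured by QuantSeq 3′ libraries. Per the labels and the methods, the authors trimmed reads with cutadapt and used STAR within Partek Flow for alignment to mm10 and per-gene quantification. The sources used here do not give the scaling method. The deposited values are normalized counts, a scaled signal and not whole reads. Of low values, 84.0% to 89.3% were whole multiples of a library's step (tolerance 0.02). The paper states a sequencing depth for the libraries as a whole but not the read number of each, and no count test was run. Values under 0.01 are written as listed at 0. No column was left unmapped (0 unused).

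Groups were compared on log2(normalized count + 2) in limma 3.58.1 (R 4.3.3, trend and robust on), using only genes that exceeded 15 in some library of the fit. An adjusted p under 0.05 counted as called. One fit held the 6 culture groups, and 2 others held RiboTag and 3 culture groups each (20320 or 20415 genes). Members shown by library were those with the smallest p, up to 4 per class for IL-1β and RiboTag and up to 2 for the coatings, plus Mki67, Top2a, Pcna and Ccnd1. Up to 3 genes per further list were named. Members and lists were chosen with earlier results of these data known. The test of IL-1β over the coatings was checked on simulated counts, with changes set only in the more abundant genes. The other comparisons, and changes in genes with few counts, were not simulated. Tables and figures used Python 3.11.15, numpy 2.4.6, pandas 2.3.3 and matplotlib 3.10.9. Alternatives were pseudocounts of 1 and 8, filters, scalings, a constant variance prior, only the groups compared, blocks and leaving out each library.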

Additional observations from a re-analysis of the deposited data

Results flagged for a closer look

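Each value below was the highest or lowest of the 5 libraries of its group and stood apart from the nearest of the others by more than 0.71 of the range of the group (Dixon's 95% limit for 5 samples). Among 210 groups, from 27 named members and 3 class sums in 7 groups, 21 stood apart. Chance alone flags about 1 in 20 groups where values are normally distributed. Several of the groups here hold values at 0, so that rate is no benchmark for the 21. Values are normalized counts. Cdk6 was at 2023 in poly-L-ornithine IL-1β replicate 5 (the other 4 lay at 1797 to 1857). Ccne2 was at 14.2 in poly-L-ornithine IL-1β replicate 5 (the other 4 were listed at 0). E2f1 was at 57.3 in Matrigel naive replicate 2 (the other 4 lay at 227 to 281). Mcm3 was at 58.8 in poly-L-ornithine naive replicate 2 (the other 4 lay at 129.7 to 135), 295 in Matrigel IL-1β replicate 3 (the other 4 lay at 81.2 to 109) and 132 in poly-L-ornithine IL-1β replicate 4 (the other 4 lay at 38.8 to 60.3). Cdc6 was at 34.1 in Matrigel naive replicate 5 (the other 4 were listed at 0) and 74.2 in Matrigel IL-1β replicate 3 (the other 4 lay at 0 to 3.73). Tyms was at 263 in poly-L-ornithine naive replicate 5 (the other 4 lay at 91.3 to 133). Rrm1 was at 445 in laminin IL-1β replicate 1 (the other 4 lay at 162 to 243). Ccnb2 was at 90.04 in poly-L-ornithine naive replicate 4 (the other 4 lay at 0 to 24.3) and 29.7 in RiboTag naive replicate 3 (the other 4 were listed at 0). Cdk1 was at 90.2 in RiboTag naive replicate 1 (the other 4 lay at 0 to 18.9). Cdca8 was at 29.6 in laminin IL-1β replicate 4 (the other 4 lay at 94.8 to 104), 108 in poly-L-ornithine IL-1β replicate 2 (the other 4 lay at 23.2 to 47.3) and 29.2 in RiboTag naive replicate 5 (the other 4 lay at 0 to 7.43). Cenpe was at 24.1 in poly-L-ornithine IL-1β replicate 3 (the other 4 lay at 0 to 3.02). Hmmr was at 57.0 in Matrigel IL-1β replicate 2 (the other 4 lay at 0 to 0.916), 20.6 in laminin IL-1β replicate 2 (the other 4 lay at 0 to 2.11) and 10.9 in RiboTag naive replicate 5 (the other 4 were listed at 0). Mki67 was at 224 in Matrigel naive replicate 5 (the other 4 lay at 33.8 to 75.5).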

How the results depend on the processing

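No log2 fold change of the members named over the coatings, between coatings or in RiboTag against naive cultures changed direction under any alternative run. With equal library totals or quantile normalization no called member of any comparison did. The direction of the other calls was not checked under the remaining alternatives. The number of members called moved by over 1.5 times in the following cases, and the cause was not tested. For IL-1β on Matrigel and on laminin, 2 members became 0 with a constant variance prior (Ccnd3 at adjusted p-values of 0.0911 and 0.0871, Cdk6 at 0.139 and 0.1 from limma), and leaving out single libraries gave 1 to 2 on each coating. For IL-1β on poly-L-ornithine, 4 became 7 with the serial rank block. Between poly-L-ornithine and the other coatings after IL-1β, 0 became 1 when only the groups compared were fitted (Ccnd2, 0.0239) and 4 with the serial rank block, and leaving out single libraries gave 0 to 2. For RiboTag against naive cultures, 24 became 37 with quantile normalization. The replicate numbers of the labels did not pair the libraries (mean correlation of deviations -0.00719, 0 of 75 pairs over 0.1), and a replicate block left the number of members called at 6 for IL-1β over the coatings, 2 on Matrigel, 2 on laminin, 4 on poly-L-ornithine, 24 for RiboTag against naive and 23 against treated cultures, and 0 in the other comparisons. For the members named over the coatings, between coatings and in RiboTag against naive cultures, 1165 alternatives stayed on their side of the threshold and 14 moved past it. Hmmr and Cdc6 could not be tested with a filter on a mean of at least 15. Low values limit the mitotic genes most, since 22 of 26 had culture means under 100.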
